A study of Mus musculus with 57 samples.

Results

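Whole bone marrow of clinically healthy NHD13 mice was set against whole marrow of wild-type mice, with 3 expression arrays in each group, which are 6 of the 57 arrays of the series. NHD13 mice carry the transgene vav-NUP98-HOXD13, a fusion of the nucleoporin gene NUP98 with the homeobox gene HOXD13 that the vav promoter drives in blood-forming cells. The arrays are those titled NHD13 whole marrow 1 to 3 and wild-type whole marrow 1 to 3. Wild-type whole marrows 4 to 6 were left out of this comparison because their signals have a narrower spread. Clinically healthy means that no evident sign of leukemia was present, wild-type tissue was age-matched and came from littermates where possible, and no animal was treated. Ages and the strain of wild type 1 to 3 are not given in the labels, and all NHD13 arrays come from a single transgene. For side-by-side levels, 3 wild-type whole marrows labelled C57B6 were used. NHD13 and wild-type lineage-negative marrow (3 arrays each), from which mature blood cells are depleted, and whole marrow of CA10 mice (vav-CALM-AF10) with wild type 4 to 6 (3 each) served for tests of differences in effect. Nothing in the labels shows that the arrays of a group come from different mice, and the p-values therefore reflect array-to-array spread alone, which may be technical.

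The NUP98 part of the fusion brings gene-activating proteins to sites that the HOXD13 homeodomain binds. HOX genes lie in 4 clusters, and the 5′ members of the HOXA cluster are normally active in blood stem and progenitor cells and are switched off as the cells mature. HOX proteins bind DNA with PBX and MEIS cofactors, and persistent HOXA9 is a known feature of leukemias that carry NUP98 fusions.

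All values are log2 signals made with RMA, 1 probe set per gene, so a difference of 1 is a doubling on the array's scale. The 75th percentile of all signals lay between 7.47 and 7.53 on the NHD13 arrays and between 7.48 and 7.59 on wild type 1 to 3, against 7.12 to 7.15 on wild type 4 to 6. NHD13 arrays correlated with one another at 0.975 to 0.989, wild-type arrays at 0.987 to 0.992, and NHD13 with wild-type arrays at 0.971 to 0.983. By Xist and the Y-linked Eif2s3y, NHD13 1 and 2 and all 3 wild-type arrays were male and NHD13 3 was female, with 11.06 for Xist against 5.36 to 6.23 on the other 5 arrays. RNA degradation, read as the Gapdh signal at the 3′ end minus that at the 5′ end, was -0.03 to 0.17 on NHD13 arrays and -0.04 to 0.51 on wild-type arrays. On the C57B6 arrays, which shared the estimate of spread in the main fit, it was 0.34, 1.36 and 0.35, so C57B6 2 stood apart. The C57B6 arrays correlated with one another at 0.968 to 0.996. Marrow markers were high in both groups: Ptprc averaged 12.03 in NHD13 and 12.38 in wild-type marrow, the neutrophil gene S100a8 averaged 14.01 in NHD13 and 14.05 in wild-type marrow, and the erythroid factor Klf1 averaged 12.39 in NHD13 and 12.12 in wild-type marrow. Cxcl13, a gene of lymphoid tissue stroma, was low at 5.90 in NHD13 and 6.15 in wild-type marrow, and the thymocyte gene Cd8a was low at 5.88 in NHD13 and 5.61 in wild-type marrow.

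Of 15310 genes tested, 189 differed between NHD13 and wild-type marrow at an adjusted p under 0.05 (limma with Benjamini-Hochberg adjustment over all genes tested), which is 1.23% of them. Of these, 38 were higher (0.248%) and 151 were lower (0.986%) in NHD13. Of them, 24 higher and 87 lower genes differed by more than 1 on the log2 scale, and the median size of the 189 differences was 1.13 with a median standard error of 0.17 over all genes. No called gene had overlapping groups, and 19.3% of all genes tested had groups that did not overlap. The C57B6 arrays entered the estimate of the spread and are no independent check. Beyond all C57B6 arrays as well lay 34 of the 38 higher and 138 of the 151 lower genes. The like share over all genes tested is not given here, and NHD13 differed from C57B6 in 4133 genes. The C57B6 arrays themselves differed from wild type 1 to 3 in 1777 genes (11.6%). A dim H2-Aa probe set averaged 7.60 in C57B6, 3.02 in NHD13 and 3.52 in wild-type marrow. An Ighm probe set outside the main fit averaged 9.86 in C57B6, 4.53 in NHD13 and 4.38 in wild-type marrow. In differences of NHD13 from C57B6, here and below, strain and transgene cannot be told apart. Of the 189, 102 have more than 1 probe set, and in 83 of these every probe set differed in the same direction. The probe set that gave the call is among them, and the like share over all genes with several probe sets was not counted. Counts of called list members below stand against 0.248% of all genes called higher and 0.986% called lower.

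The 12 largest rises included the homeobox genes Hoxa9 and Hoxc4 and their partner Pbx3, the neighbouring X-linked pair Klhl4 and Dach2, 2 stefin genes, the myosin gene Myl10 and the collagenase gene Mmp13. The genes that fell most included B cell genes and genes of basophils and eosinophils. Promoters of Hoxa9 and Klhl4, as examples of the homeobox group and the X-linked pair, and of Apoc2, which carried a HOX motif, are given here from RefSeq on build GRCm38.p6 (300 bases around the gene start, in the direction of the gene). Capitals mark a match to CAATAAA, the motif of posterior HOX proteins, and neither this motif nor TGATTNAT, the joint HOX and PBX motif, was found in the first and second sequence.
Hoxa9, chr6:52227321-52227620, minus strand: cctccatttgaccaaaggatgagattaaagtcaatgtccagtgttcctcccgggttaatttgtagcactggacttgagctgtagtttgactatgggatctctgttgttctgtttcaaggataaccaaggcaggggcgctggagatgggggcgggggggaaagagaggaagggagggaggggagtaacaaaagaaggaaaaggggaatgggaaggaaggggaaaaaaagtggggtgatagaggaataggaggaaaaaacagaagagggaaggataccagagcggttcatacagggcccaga
Klhl4, chrX:114474083-114474382, plus strand: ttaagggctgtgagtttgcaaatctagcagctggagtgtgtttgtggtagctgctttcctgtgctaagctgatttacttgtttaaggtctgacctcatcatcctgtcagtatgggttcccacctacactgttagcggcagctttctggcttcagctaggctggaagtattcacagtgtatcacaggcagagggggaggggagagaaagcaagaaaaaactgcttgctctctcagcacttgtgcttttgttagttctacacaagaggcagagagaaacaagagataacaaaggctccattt
Apoc2, chr7:19677892-19678191, minus strand: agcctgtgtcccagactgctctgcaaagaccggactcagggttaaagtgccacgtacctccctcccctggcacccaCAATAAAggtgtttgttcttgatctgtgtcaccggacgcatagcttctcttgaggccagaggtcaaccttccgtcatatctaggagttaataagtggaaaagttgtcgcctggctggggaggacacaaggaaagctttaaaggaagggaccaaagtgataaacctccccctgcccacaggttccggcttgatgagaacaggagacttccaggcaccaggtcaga

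Both motifs were searched on both strands of the promoters that RefSeq gave. CAATAAA was present in 3 of 26 promoters of genes called higher (11.5%), those of Apoc2, Liph and Ufsp1, in 0 of 109 promoters of genes called lower, and in 3.19% of the 12236 promoters of all genes tested. TGATTNAT was present in 0 of 26 promoters of higher genes, 3 of 109 of lower genes (2.75%) and 1.99% of all. These are counts of letters in short windows and were not tested.

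Hoxa9, a transcription factor that keeps progenitors from maturing, had 9.68, 10.03 and 8.87 in NHD13 marrow and 5.73, 6.81 and 6.05 in wild-type marrow. The groups stood far apart, and the C57B6 arrays, from 6.08 to 6.69, lay with wild type. The difference was 3.33 ± 0.33 (model SE, n = 3 each; limma adjusted p = 0.00161). A second Hoxa9 probe set gave 7.70, 8.22 and 7.50 in NHD13 and 6.48, 6.45 and 6.41 in wild-type marrow, a smaller difference of 1.36. Hoxa10, its 5′ neighbour, was dimmer, with 5.72, 5.25 and 4.81 in NHD13 and 3.92, 3.79 and 4.03 in wild-type marrow, and rose by 1.35 ± 0.20 (limma adjusted p = 0.0129). That call was lost when NHD13 2, wild type 1 or wild type 2 was left out, with adjusted p-values up to 0.081.

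**Figure D1:**
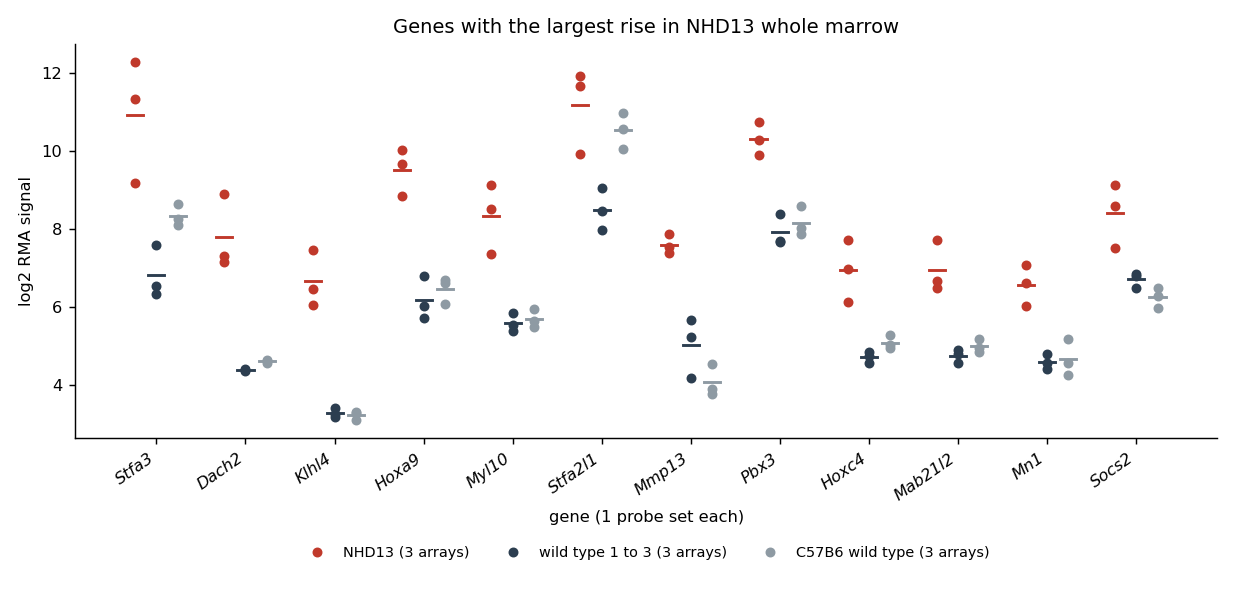
Log2 RMA signals (vertical axis) of the 12 named genes with the largest rise (horizontal axis), 1 point per array and a bar at each group mean; NHD13, wild type 1 to 3 and C57B6 arrays stand left to right. NHD13 points lie above all wild-type 1 to 3 points in every gene, which the choice of genes required, and for Stfa2l1 the C57B6 arrays reach into the NHD13 range.

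Of 8 HOXA genes tested, 2 rose, where 0.248% of all genes were called higher. Of the HOXA genes 0 fell and 7 differences were positive, with a median of 0.43 against 0.016 over all genes. Hoxa7 had 7.48, 7.58 and 7.83 in NHD13 and 6.89, 6.47 and 6.53 in wild-type marrow, groups that did not overlap, but its difference of 1.00 ± 0.23 did not pass (limma adjusted p = 0.0764). Hoxa5 depended on the probe set. The brighter one over the series gave 7.14, 7.15 and 7.38 in NHD13 and 6.79, 6.62 and 6.53 in wild-type marrow, a difference of 0.58 (limma adjusted p = 0.174). The other Hoxa5 probe set gave 8.04, 8.26 and 8.21 in NHD13 and 5.59, 5.41 and 5.64 in wild-type marrow, a difference of 2.62 ± 0.17 (limma adjusted p = 0.000188 with every probe set tested on its own, a setting added after the data were seen, in which 299 of 34382 probe sets, or 0.87%, were called). In that setting a second Hoxa3 probe set rose by 1.37 (limma adjusted p = 0.00437), where the one used differed by 0.25. Hoxa13, at the 5′ end of the cluster, differed by -0.04.

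In the HOXC cluster 1 of 5 genes passed, where 0.248% of all genes were called higher, and all 5 differences were positive, with a median of 1.46. Hoxc4 had 6.15, 6.98 and 7.74 in NHD13 and 4.85, 4.76 and 4.58 in wild-type marrow, a rise of 2.23 ± 0.32 (limma adjusted p = 0.00974). The call was lost without wild type 2 (adjusted p = 0.058). Hoxc6 and Hoxc8 differed by 1.62 and 1.46 with adjusted p-values of 0.0825 and 0.0859. For Hoxc4, Hoxc6 and Hoxc8 alike the signal was lowest on NHD13 1 and highest on NHD13 3, the female array, and every NHD13 value was above every wild-type value. Of 3 Hoxc5 probe sets 1 also passed when each was tested alone, at 2.21 ± 0.40 (limma adjusted p = 0.0375). None of 6 HOXB and 3 HOXD genes passed, with medians of 0.05 and 0.23. The signal of the mouse Hoxd13 probe set was 4.98 in NHD13 and 4.91 in wild-type marrow, and Nup98 had 8.71 in NHD13 and 8.90 in wild-type marrow. These probe sets were designed on the mouse genes, and whether they read the transgene is not stated in the sources used here, so they do not check the labels.

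**Figure D2:**
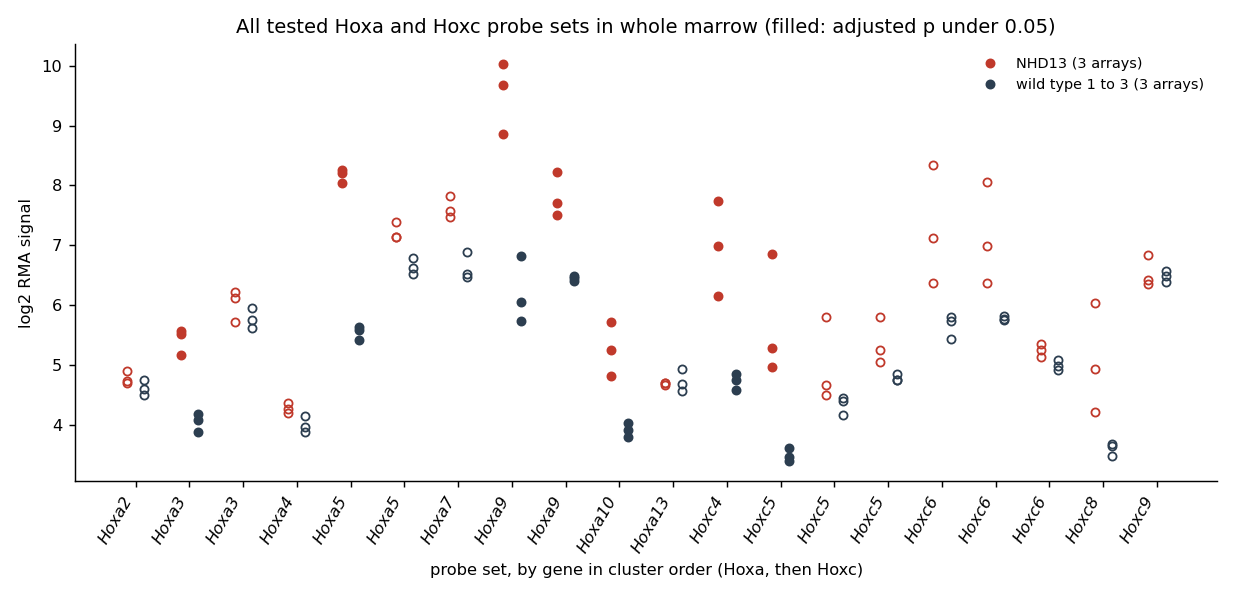
Log2 RMA signals (vertical axis) on the 3 NHD13 and the 3 wild-type arrays for each tested Hoxa and Hoxc probe set (horizontal axis), NHD13 left of wild type; filled points mark an adjusted p under 0.05 with every probe set tested on its own. Filled pairs occur for 1 probe set each of Hoxa3, Hoxa5, Hoxa10, Hoxc4 and Hoxc5 and for both of Hoxa9.

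Pbx3, a cofactor that binds DNA beside HOX proteins, had 10.29, 9.91 and 10.76 in NHD13 and 8.40, 7.67 and 7.71 in wild-type marrow. It rose by 2.39 ± 0.27 (limma adjusted p = 0.00378), its second probe set rose by 2.64, and the call held under each of the 22 other settings run. It was 1 of 8 cofactor genes that passed, where 0.248% of all genes were called higher, and none fell. Meis1, the usual partner of Hoxa9 in leukemia models, had 6.22, 6.71 and 6.90 in NHD13 and 6.52, 6.20 and 6.01 in wild-type marrow, values that overlapped. Among 18 genes linked to NUP98 fusion leukemia, Pbx3 rose and Hip1r, which codes for a protein of endocytosis, fell by 0.96 ± 0.18 (limma adjusted p = 0.034). The Hip1r call was lost without any 1 of the NHD13 arrays, wild type 1, wild type 2 or C57B6 3, with adjusted p-values up to 0.15. Mecom, a stem cell factor, differed by 1.25 without passing (limma adjusted p = 0.0717).

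Klhl4, a member of the kelch-like family, had 6.47, 6.07 and 7.47 in NHD13 and 3.27, 3.20 and 3.42 in wild-type marrow. The wild-type values were close to the lowest signals in the table, which begin at 2.58, and the difference was 3.38 ± 0.29 (limma adjusted p = 0.000472). Dach2, a transcription cofactor of the dachshund family, had 7.32, 7.17 and 8.91 in NHD13 and 4.37, 4.43 and 4.40 in wild-type marrow, a rise of 3.40 ± 0.36 (limma adjusted p = 0.00218). A second Dach2 probe set rose by 2.16, and a second Klhl4 probe set differed by 0.80 and did not pass. These genes are next to each other on the X chromosome among the genes tested, in the order of GRCm38.p6. The tested genes on either side, Chm at 0.02 and Cldn34c1 at 0.51, did not pass. Both genes were highest on the female array, and on the 2 male NHD13 arrays they were also above all wild-type arrays.

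Neighbouring genes called in the same direction were few. Besides Dach2 with Klhl4 and Hoxa9 with Hoxa10, the pair Stfa2l1 and Stfa3 on chromosome 16 rose, and 4 adjacent pairs fell, among them Ffar2 with Cd22 on chromosome 7 and Mmp9 with Slc12a5 on chromosome 2. Pbx3 and Mmp13 stood alone: none of the 4 tested genes on each side of either one passed.

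Several other genes with large rises are regulators. Mn1, a transcriptional cofactor and leukemia gene in humans, had 6.61, 7.09 and 6.03 in NHD13 and 4.81, 4.41 and 4.58 in wild-type marrow (difference 1.98 ± 0.28, limma adjusted p = 0.0101). Mab21l2, a gene of eye and body wall development, had 6.67, 7.72 and 6.50 in NHD13 and 4.58, 4.90 and 4.80 in wild-type marrow (2.20 ± 0.27, limma adjusted p = 0.00578). Socs2, which dampens cytokine receptor signals, had 7.54, 9.13 and 8.60 in NHD13 and 6.81, 6.50 and 6.86 in wild-type marrow (1.70 ± 0.33, limma adjusted p = 0.0404). Myl10, a myosin light chain, rose by 2.75 ± 0.36 (limma adjusted p = 0.00663). The Socs2 call was lost in 7 of the 9 fits that leave out 1 array, all but those without NHD13 1 or C57B6 2, with adjusted p-values up to 0.196, and the Mn1 call without wild type 2 (adjusted p = 0.0667). In each of these 4 genes the lowest NHD13 array exceeded the highest wild-type array, which the choice of genes required, and also the highest C57B6 array. P2ry14, a receptor for UDP sugars found on progenitor cells, rose by 1.40 but its NHD13 range of 6.50 to 7.05 overlapped the C57B6 range of 6.18 to 6.70, and its call was lost without NHD13 2, wild type 1 or wild type 2.

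Stefins are small inhibitors of cysteine proteases, and the Stfa genes are a mouse cluster of close copies expressed in neutrophils. Of 3 measured, Stfa3 and Stfa2l1 rose and Cstb differed by 0.12. Stfa3 had 9.20, 12.30 and 11.34 in NHD13 and 6.56, 7.60 and 6.35 in wild-type marrow, the largest rise of all (4.11 ± 0.64, limma adjusted p = 0.0139), with NHD13 1 well below the other NHD13 arrays. Stfa2l1 had 9.95, 11.94 and 11.67 in NHD13 and 8.47, 9.08 and 7.98 in wild-type marrow (2.68 ± 0.48, limma adjusted p = 0.0288), but the C57B6 arrays reached 10.06 to 10.98. With C57B6 marrow as the control its difference was 0.64. The copies may share probes, so which of them changed is uncertain, and both calls were lost without wild type 1 or wild type 3.

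Of 22 stromal, vessel and bone genes, 2 rose, where 0.248% of all genes were called higher, 0 fell and 19 differences were positive (median 0.32). Their mean log2 level was 7.52 to 8.09 on the NHD13 arrays, 7.15 to 7.41 on wild type 1 to 3 and 6.58 to 6.74 on C57B6 arrays. Mmp13, a collagenase of bone, had 7.56, 7.40 and 7.88 in NHD13 and 4.18, 5.67 and 5.25 in wild-type marrow (2.58 ± 0.34, limma adjusted p = 0.00773), and it was called under all 22 other settings. Adipoq, the fat cell hormone adiponectin, had 9.22, 9.98 and 9.39 in NHD13 and 8.21, 8.45 and 8.37 in wild-type marrow (1.18 ± 0.24, limma adjusted p = 0.0446), a call lost in 7 of the 9 fits that leave out 1 array. Kitl, Ctsk and Col3a1 differed by 0.91, 1.00 and 1.04 without passing. Among the other genes called higher, chosen for mention after their values were seen, are the matrix genes Dcn (0.98) and Nid1 (1.29), the gap junction gene Gja1 (1.24) and the growth factor Ccn2 (1.11). With C57B6 as the control, 14 of the 22 genes were higher in NHD13, where 1650 of all 15310 genes tested were called higher. The part of stromal cells in these differences was not tested.

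B cell genes fell together. Of 20 tested, 14 were lower, 0 were higher and all 20 differences were negative, with a median of -1.91, where 0.986% of all genes were called lower. The mean log2 level of the list was 6.43, 7.17 and 6.56 on the NHD13 arrays and 8.58, 8.36 and 8.79 on the wild-type arrays, which did not overlap. In bulk marrow, fewer cells of a type and less RNA per cell cannot be told apart, here and for the cell types that follow. Without wild type 1 the count was 8 of 20, and it was 10 without wild type 2 or without wild type 3. With C57B6 as the control the median difference was -2.54.

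Ighm, the heavy chain of IgM, had 10.02, 10.59 and 9.48 in NHD13 and 13.36, 13.40 and 13.35 in wild-type marrow, and fell by 3.34 ± 0.23 on the log2 scale (limma adjusted p = 0.000154), or 10.1-fold. The wild-type arrays lay close together, and the mean of all Ighm probe sets gave -1.10 (limma adjusted p = 0.055). Ms4a1, which codes for CD20, had 4.93, 6.02 and 5.49 in NHD13 and 8.76, 8.61 and 9.02 in wild-type marrow (-3.32 ± 0.40, limma adjusted p = 0.00562). Fcmr, the IgM Fc receptor, had 5.62, 6.02 and 5.31 in NHD13 and 8.31, 8.57 and 8.76 in wild-type marrow (-2.90 ± 0.20, limma adjusted p = 0.000154). Cd22 and Cd72, inhibitory coreceptors, fell to 6.83 and 6.28 in NHD13, against 8.71 and 8.22 in wild-type marrow. Cd79a, the signal chain of the B cell receptor, averaged 6.94 in NHD13 and 9.18 in wild-type marrow, but the C57B6 arrays, from 7.17 to 7.67, overlapped the NHD13 range, and its call was lost without wild type 1. Tnfrsf13c, the receptor for the survival factor BAFF, fell by 2.31, and its ligand gene Tnfsf13b, chosen for mention after its values were seen, fell by 1.31.

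**Figure D3:**
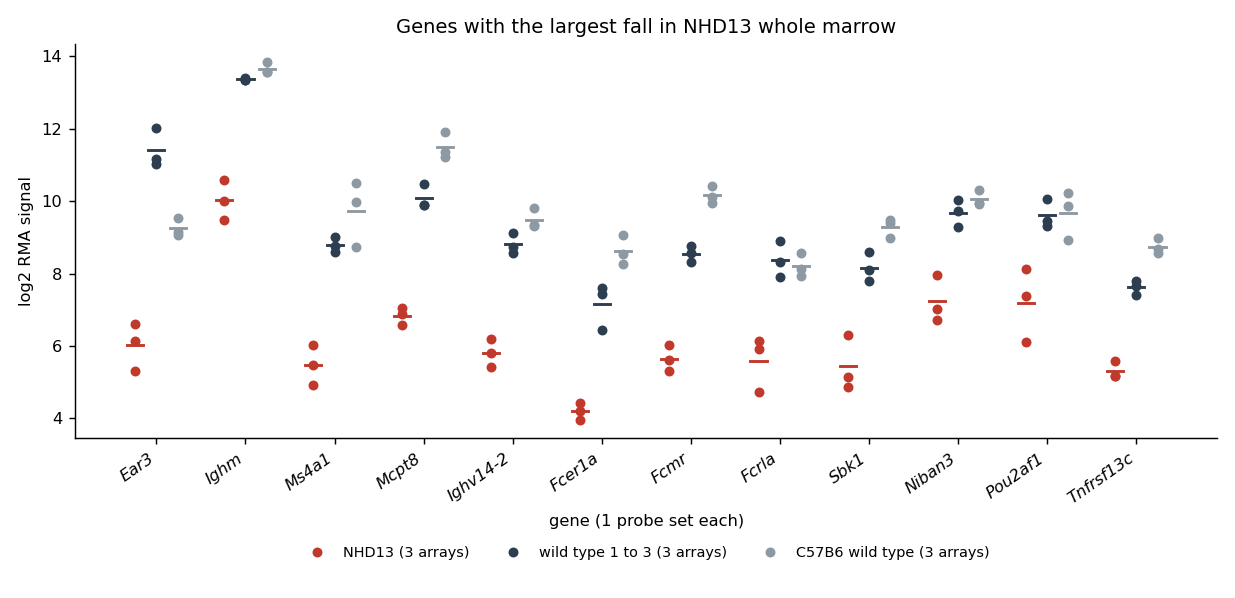
Log2 RMA signals (vertical axis) of the 12 named genes with the largest fall (horizontal axis), 1 point per array and a bar at each group mean; NHD13, wild type 1 to 3 and C57B6 arrays stand left to right. NHD13 points lie below both wild-type groups in every gene, which the choice of genes required for wild type 1 to 3 only. For Ear3 the C57B6 mean of 9.25 lies between those of NHD13 and wild type 1 to 3.

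The B cell genes that did not pass included the lineage factors Ebf1 (-1.61), Pax5 (-0.60) and Bach2 (-2.32, limma adjusted p = 0.0674). Precursor genes were mixed: of 18, 1 fell, 0 rose, 13 differences were negative and 5 positive, and the median was -0.57. The mean log2 level of the precursor list was 7.26 to 8.37 on NHD13 arrays and 8.21 to 8.75 on wild-type arrays, which overlapped. The gene that fell was Foxo1, a factor for B cell development, with 6.93, 7.23 and 6.98 in NHD13 and 8.21, 7.87 and 7.99 in wild-type marrow (-0.97 ± 0.14, limma adjusted p = 0.0116), a call lost without wild type 1 (adjusted p = 0.0535) and with wild type 1 to 6 as controls (adjusted p = 0.0557). Vpreb1 and Vpreb3, of the surrogate light chain family, and Rag1, the recombinase, were lower by 2.37, 2.00 and 2.18 without passing, while Dntt differed by 1.04. Of 10 plasma cell genes, Irf4 and Mzb1 fell by 1.95 and 1.62, where 0.986% of all genes were called lower. No gene of this list was called without wild type 1, wild type 2 or wild type 3. Of 9 MHC class II genes all differences were negative (median -0.66) and 1 passed: Cd74, the invariant chain, with 9.32, 9.62 and 8.92 in NHD13 and 10.96, 10.81 and 11.16 in wild-type marrow (-1.69 ± 0.20, limma adjusted p = 0.005). H2-Aa had 9.57, 9.46 and 7.33 in NHD13 and 11.01, 10.67 and 10.81 in wild-type marrow. Every NHD13 array was below every wild-type array and NHD13 3 was the lowest, and the difference of -2.04 did not pass. Without NHD13 3 it was -1.31 and passed (limma adjusted p = 0.0134).

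Of 15 genes of eosinophils, basophils and mast cells, 4 were lower, where 0.986% of all genes were called lower, 0 were higher, and the median difference was -1.25. The 4 genes were Mcpt8, Fcer1a, Ms4a2 and Cpa3, all genes of basophils or mast cells. The mean level of the list was 5.77, 5.59 and 5.95 on NHD13 arrays and 6.90, 7.05 and 7.51 on wild-type arrays. Mcpt8, a protease of basophil granules, had 7.05, 6.87 and 6.58 in NHD13 and 9.91, 10.47 and 9.89 in wild-type marrow (-3.25 ± 0.22, limma adjusted p = 0.000154). Fcer1a and Ms4a2, chains of the IgE receptor, averaged 4.19 and 5.29 in NHD13 and 7.16 and 7.40 in wild-type marrow. Cpa3, a granule carboxypeptidase, fell by 1.48 ± 0.22 (limma adjusted p = 0.0119), a call lost without wild type 2 or wild type 3. Without wild type 2 the count was 3, and with C57B6 as the control it was 11, where 2483 of all 15310 genes tested were called lower.

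Ear3, an eosinophil-associated ribonuclease and the largest fall, was not on that list. It had 6.61, 6.14 and 5.32 in NHD13 and 11.17, 11.03 and 12.03 in wild-type marrow (-5.39 ± 0.34, limma adjusted p = 0.000154), or 42.0-fold. The C57B6 arrays, from 9.07 to 9.54, lay between the other groups, and their difference from wild type 1 to 3 was -2.16 (limma adjusted p = 0.00382). The probe set's suffix marks probes that can match related sequences, so the Ear copies cannot be told apart. The eosinophil granule genes Prg2 and Epx differed by -3.08 and -2.25 without passing (limma adjusted p = 0.0872 and 0.0556).

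Of 17 late neutrophil genes, 5 were lower, where 0.986% of all genes were called lower, 0 were higher, and the median difference was -0.37. Mmp9, the gelatinase of tertiary granules, had 10.49, 10.43 and 10.71 in NHD13 and 11.40, 11.51 and 11.34 in wild-type marrow (-0.87 ± 0.12, limma adjusted p = 0.00957), and Cybb, a subunit of the oxidase, gave -0.87 as well. Cd177, Padi4 and Itgb2l fell by 0.87, 0.90 and 0.82. The count was 0 without wild type 2 and 0 with wild type 1 to 6 as controls. It was 11 with C57B6 as the control, where 2483 of all 15310 genes tested were called lower. The secondary granule genes Ltf, Camp and Ngp differed by -0.37, -0.26 and -0.03, and the abundant S100a8 by -0.04. Of 9 primary granule genes only Gfi1 passed, a repressor that directs neutrophil maturation, which fell by 1.00 ± 0.17 (limma adjusted p = 0.0257). Its NHD13 range of 7.88 to 8.18 overlapped the C57B6 range of 8.04 to 8.68, and the difference was -0.33 with C57B6 as the control (limma adjusted p = 0.196) and -0.39 with wild type 1 to 6 (limma adjusted p = 0.45). The call was also lost without NHD13 1, NHD13 2 or any 1 of the wild-type arrays. Mpo had 12.15, 12.74 and 13.54 in NHD13 and 12.89, 13.42 and 13.21 in wild-type marrow, which overlapped.

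**Figure D4:**
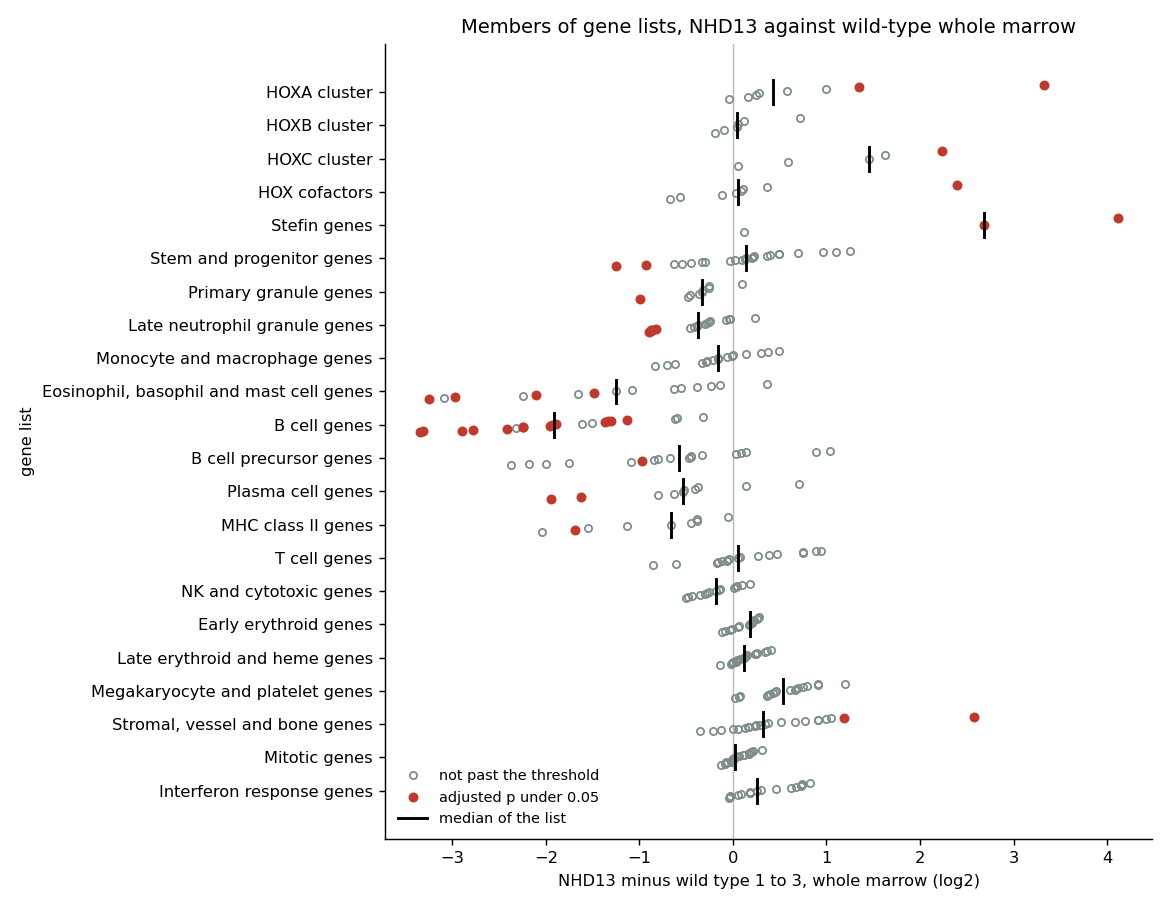
Difference of NHD13 minus wild type 1 to 3 on the log2 scale (horizontal axis) for each tested member of 22 gene lists (vertical axis); filled points passed an adjusted p of 0.05 and the bar is the list's median. B cell genes all lie left of 0 with a median of -1.91, megakaryocyte genes all lie right of 0 with none past the threshold, and HOXC genes have a median of 1.46.

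Of 23 stem and progenitor genes, Hlf and Prom1 fell by 1.25 and 0.93, where 0.986% of all genes were called lower. None rose, and the median was 0.14. Both calls were lost without NHD13 2, wild type 1 or wild type 2. The Prom1 call was also lost without NHD13 1, NHD13 3 or C57B6 1. With wild type 1 to 6 as controls neither was called. Hlf then differed by -0.82 and Prom1 by -0.33 (limma adjusted p = 0.201 and 0.511). With C57B6 as the control the Hlf call was lost as well (-0.46, limma adjusted p = 0.121), while that of Prom1 held. Slamf1 differed by 0.97 (limma adjusted p = 0.0556), and Kit and Cd34 by -0.55 and 0.49. No gene passed among 18 megakaryocyte and platelet genes, although all 18 differences were positive, with a median of 0.54. The largest was that of Selp, with 8.18, 8.62 and 9.47 in NHD13 and 7.53, 7.66 and 7.50 in wild-type marrow (1.19 ± 0.28, limma adjusted p = 0.0795). No gene passed among 15 early and 19 late erythroid genes (medians 0.18 and 0.12), 17 T cell, 15 NK, 13 dendritic cell and 16 monocyte genes (medians 0.05, -0.18, -0.16 and -0.16), 20 mitotic and 21 DNA replication genes (medians 0.03 and 0.13) or 17 interferon response genes (median 0.26). Nor did any pass among 13 macrophage genes of erythroblastic islands (median 0.27), 15 apoptosis regulators (median -0.12), 16 immediate early genes (median -0.05) or 18 genes of sterol synthesis and uptake (median 0.07). Unadjusted, 1871 of all genes tested had a p under 0.05, against the 189 called. Of 17 p53 target genes 1 passed, Phlda3, with 7.74, 8.03 and 7.90 in NHD13 and 7.11, 6.99 and 6.96 in wild-type marrow (0.87 ± 0.15, limma adjusted p = 0.0229). The Phlda3 call was lost without NHD13 2 or any 1 of the wild-type arrays (adjusted p up to 0.114) and with the replicate block, and the difference was 0.58 with wild type 1 to 6 as controls (limma adjusted p = 0.214).

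Whether the NHD13 effect differed between whole and lineage-negative marrow was tested as a difference of effects over 12 arrays. By Xist and Eif2s3y, all NHD13 lineage-negative arrays and wild-type lineage-negative 1 were male, while wild-type lineage-negative 2 and 3 were female. The part of sex in this test was not tested. Called genes numbered 0 of 15310 (limma, smallest adjusted p 0.0699), 493 had an unadjusted p under 0.05, and a fit with trend and robust settings called 1. The third lineage-negative arrays had a narrow signal spread, and without them 15 genes were called. Of the 189 genes called in whole marrow, 31 of the 38 higher and 101 of the 151 lower differed in the same direction in lineage-negative marrow, and 54.0% of all genes tested had the same sign in both.

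Pbx3 was 8.57 to 9.54 in NHD13 and 6.00 to 7.41 in wild-type lineage-negative marrow, a difference of 2.24 close to the 2.39 in whole marrow (limma adjusted p = 0.0511). Hoxa9 differed by 0.70 there, with 5.43 to 10.42 in NHD13 and 7.16 to 8.24 in wild-type lineage-negative marrow, so that its NHD13 arrays were widely spread. Mcpt8 fell in both tissues: in lineage-negative marrow it was 4.47 to 5.93 in NHD13 and 9.20 to 11.71 in wild type (-5.69 ± 0.58, limma adjusted p = 0.00728), where 0.229% of all genes were called. Mpo and Ctsg, granule proteins of early neutrophils, averaged lower by 3.64 and 4.13 in NHD13 than in wild-type lineage-negative marrow, against 0.37 and 0.46 in whole marrow; the differences of effect of 3.28 ± 0.62 and 3.66 ± 0.66 did not pass (limma adjusted p = 0.201 each). Ms4a1 differed by -3.32 in whole marrow and 0.43 in lineage-negative marrow, where it was 4.61 to 6.67 in NHD13 and 4.76 to 5.12 in wild type. Its difference of effects, -3.75 ± 0.65, had the same adjusted p of 0.201. NHD13 lineage-negative 3 also stood apart in RNA degradation, with a Gapdh 3′ minus 5′ signal of 2.95. Without the third array of each group the lineage-negative difference was 1.92 for Hoxa9, 1.75 for Pbx3, -5.25 for Mcpt8, -4.02 for Mpo, -4.45 for Ctsg and -0.15 for Ms4a1, so that the sign of Ms4a1 turned and the Hoxa9 difference was larger.

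The NHD13 effect differed from the CA10 effect in whole marrow for 181 genes, 1.18% of those tested, with 22 higher and 159 lower in the NHD13 contrast. Each transgene was set against wild-type arrays of a like signal spread, so array set and transgene cannot be told apart in the levels, and wild type 4 to 6 were female while wild type 1 to 3 were male. CA10 marrow itself differed from wild type 4 to 6 in 1 gene (0.00653%), Hoxa9, with 7.65 to 7.90 in CA10 and 5.06 to 5.29 in wild type 4 to 6 (2.57, limma adjusted p = 0.00292). The Hoxa9 effects of NHD13 and CA10 differed by 0.75 (limma adjusted p = 0.386). Klhl4 differed by -0.03 and Pbx3 by -0.06 in CA10 marrow, so that the NHD13 effect exceeded that of CA10 by 3.41 ± 0.36 and 2.45 ± 0.35 (limma adjusted p = 0.000539 and 0.00465). Meis1 differed by 1.12 in CA10 marrow and 0.37 in NHD13 marrow, and the difference of effects was not called (limma adjusted p = 0.172). Ear3, Mcpt8 and Fcmr were lower in the NHD13 contrast than in the CA10 contrast by 4.73, 3.19 and 2.92.

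**Figure D5:**
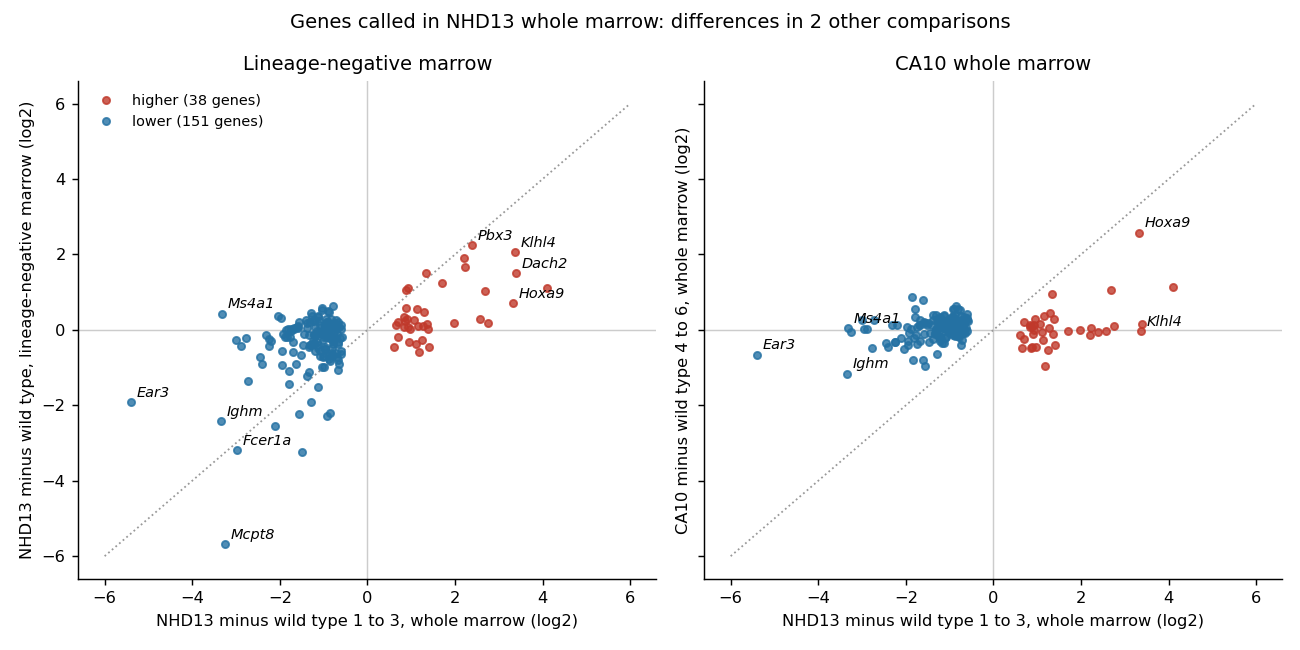
The 189 called genes by their NHD13 minus wild type 1 to 3 difference in whole marrow (horizontal axes, log2) and by the NHD13 difference in lineage-negative marrow or the CA10 difference in whole marrow (vertical axes, log2); the dotted line marks equal differences. Pbx3 lies near the line at left and Mcpt8 beyond it at -5.69, while at right most genes lie near 0 and Hoxa9 stands apart at 2.57.

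The same genes were read in spleens of NHD13 mice with leukemia (6 arrays) as levels only, since wild-type spleen has 2 arrays and is another tissue. Pbx3 was 10.31 to 11.43 (median 10.91) in leukemic spleens, 9.91 to 10.76 in NHD13 healthy marrow and 7.64 to 7.69 in wild-type spleen. Hoxc4 was 6.57 to 9.79 (median 8.45) in leukemic and 4.97 to 5.20 in wild-type spleens. Klhl4 and Dach2 were more uneven, at 5.28 to 9.34 and 4.74 to 9.28 in leukemic spleens and at 3.90 to 4.21 and 4.35 to 4.49 in wild-type spleens. Mab21l2 was 5.08 to 5.71 in leukemic spleens, below all 3 NHD13 healthy marrows.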

How the data were processed

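Per the labels' protocols, Trizol-extracted RNA was made into biotin-labelled product, which was hybridised to Affymetrix mouse arrays. The deposited values are log2 signals that the authors made with RMA, per the submitters' processing notes, with no version given; they run from 2.58 to 14.65 over 44943 probe sets. Of these, 34842 named 1 gene in the supplied annotation, 931 several and 9106 none, and 64 were controls. For each of 18165 genes the probe set that was brightest on average on the 57 arrays was used, and the 15310 genes above the 40th percentile of their array on at least 3 arrays were tested.

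Fits used lmFit and eBayes of limma 3.58.1 (R 4.3.3). The main one held the NHD13, wild-type 1 to 3 and C57B6 whole marrow arrays (9 in all), which share 1 estimate of the spread. Differences of effect were fitted over 12 arrays each. Benjamini-Hochberg adjustment ran over the 15310 genes, calls are adjusted p-values under 0.05, and errors are model standard errors. The number of arrays limits the precision.

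The genes named are the 12 largest rises and 12 largest falls among called genes with known symbols, up to 5 called members of each of 33 gene lists (else those of smallest p, up to 2), a few homeobox, sex and marker genes, and the 6 genes of smallest p in each test of a difference of effects; others are named as members of their list, as neighbours, or where said after their values were seen. The comparison, the lists and the rule were chosen with earlier results of these data known. List members with no entry in the annotation were not used here. The alternatives tried were other filters, the mean of a gene's probe sets, quantile normalization, other eBayes settings, array weights, other sets of arrays or controls, terms for sex, Gapdh and replicate number, each array left out, and, added after the data were seen, every probe set on its own. The main model was also run on simulated data with independent normal spread, with results not given here. Such data cannot show how the model behaves with a degraded array or with technical repeats. Gene order and promoters are those of GRCm38.p6.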

Additional observations from a re-analysis of the deposited data

Results flagged for a closer look

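The effect of NHD13 differed from that of CA10 in whole marrow for 181 genes by the test of the difference itself (limma over 12 arrays, adjusted p under 0.05), with 22 higher and 159 lower in the NHD13 contrast. Listed here are the 6 genes of smallest p in this test and those homeobox, sex and marker genes named by rule that passed. Their NHD13 effect minus the CA10 effect was 3.41 for Klhl4, 2.45 for Pbx3 and 1.21 for Hoxa7. It was -4.73 for Ear3, -3.19 for Mcpt8, -2.92 for Fcmr, -2.39 for Stxbp6 and -2.03 for Adam19. Other named genes also passed, among them Dach2 (3.25), Mmp13 (2.61), Ms4a1 (-3.37) and Fcer1a (-2.98). Hoxa7 was higher on all NHD13 arrays than on wild type 1 to 3 by a mean of 1.00, which was not called on its own, and differed by -0.21 in CA10 marrow. Stxbp6 had 4.38, 4.22 and 4.31 in NHD13 and 5.99, 6.05 and 5.69 in wild-type marrow, and differed by 0.79 in CA10 marrow. With wild type 1 to 6 as controls its NHD13 difference was -0.90 and was not called (limma adjusted p = 0.259). Its call was also lost without wild type 1 or wild type 2 and with the mean of probe sets. The Stxbp6 result thus depends on which wild-type arrays are used. Adam19, a membrane metalloprotease, had 7.22, 7.39 and 7.06 in NHD13 and 9.15, 9.40 and 9.02 in wild-type marrow, and differed by 0.07 in CA10 marrow. The CA10 arrays and their wild-type arrays have a narrower signal spread than the NHD13 arrays and theirs, and the part of the array set in these differences was not tested.

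Probe sets that the annotation ties to no gene stand outside the gene-level comparison. With every probe set tested on its own, 59 of 5598 such probe sets differed between NHD13 and wild-type marrow, which is 1.05%, with 18 higher and 41 lower.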

How the results depend on the processing

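The 189 calls became 190 with no filter, 194 with a filter at the 60th percentile, 212 with the mean of a gene's probe sets, 170 after quantile normalization, 176 with trend and robust settings, 174 with the 6 arrays compared, and 202 with every probe set on its own. They became 355 with all 15 whole marrow arrays in the fit, 1338 with array weights, 337 with Gapdh degradation as a covariate, 259 with a sex term (NHD13 3 is the only female array in the fit), and 117 with the replicate number as a block. Arrays of equal number did not deviate together (correlations of -0.0031, -0.15 and -0.21, and 0 of 3 correlated best with their own number), so the block has no basis in pairing. With wild type 1 to 6 as controls 181 were called, 93 higher and 88 lower, against 38 and 151 with wild type 1 to 3; with C57B6 as the control 4133 were called, 1650 higher and 2483 lower. Leaving out 1 array gave 49 (without wild type 2) to 365 (without C57B6 2, whose Gapdh 3′ minus 5′ signal was 1.36). Of the 48 named genes that were called, 22 kept their call under 22 settings, among them Hoxa9, Pbx3, Klhl4, Dach2, Mmp13, Ear3, Mcpt8, Fcmr and Ms4a1. All 48 kept their direction, but no called gene had overlapping groups, so leaving out 1 array could not turn it. Several other settings leave the difference itself unchanged. The genes whose NHD13 effect differed from that of CA10 numbered 106 after quantile normalization, 102 with the replicate block, and 43 (without wild type 2) to 478 (without NHD13 3) with 1 array left out. Those that differed between whole and lineage-negative marrow numbered 3 with the mean of probe sets, 1 with trend and robust settings, 15 without the third lineage-negative arrays and 0 to 19 with 1 array left out; with the block, 0, where lineage-negative arrays of equal number did deviate together (0.21, 0.68 and 0.74).

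Among the named genes, those that turned their direction were not called; direction was followed for no other gene. They were Tpx2 (-0.10, mean of probe sets), Cd3e (-0.28 to 0.014 over the fits with 1 array left out, positive without NHD13 2), Eif2s3y (-2.50 to 0.15) and Xist (-0.43 to 2.42), turned without NHD13 3 and with the sex term alike (0.15 and -0.43), and Xist with array weights (-0.016). With wild type 1 to 6 as controls they were Klf4 (0.18), Hbb-b2 (-0.19), Bcl2l11 (0.026), Uty (0.29), Eif2s3y (1.00), Nup98 (0.093), Mllt10 (0.17), Hoxa5 (-0.16), Hoxd13 (-0.017) and Xist (-0.79). With C57B6 as the control they were Cd3d (0.92), Clec10a (0.10), Bcl2l11 (0.20), Ifit3 (-0.87), Uty (1.84), Mllt10 (0.17) and Hoxd13 (-0.30). The causes of these changes were not tested. With 3 arrays a group, signals near the floor of the arrays limit what can be seen of dim genes such as Hoxa10 and Klhl4 in wild-type marrow.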
